A study of Mus musculus with 4 samples.

Results

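Mfsd2a is the transporter that carries lysophosphatidylcholine with docosahexaenoic acid (DHA) across the blood-brain barrier, and it also limits vesicle traffic through brain endothelial cells. In 2aiECKO mice the gene is deleted from endothelium only after birth: pups carrying Mfsd2a fl/fl and Cdh5ERT2-cre, a tamoxifen-dependent recombinase under the endothelial Cdh5 promoter, were given 4-hydroxytamoxifen (4-OHT) by injection on consecutive days from birth. The comparison described here sets the cerebrum RNA of 2aiECKO mice against that of Mfsd2a fl/fl mice that were also treated with 4-OHT and for which no Cre is named. Both groups were sampled at postnatal day 8, so they share the floxed alleles, the drug and the age, and they differ in the Cre transgene. Each group was 1 pool of equal amounts of RNA from 5 to 6 cerebrums, read on 1 Affymetrix mouse expression array, with mice of both sexes in the study. A further 2 arrays, at day 9, hold 2aECKO, in which Tie2-cre deletes Mfsd2a in endothelium from embryonic life, and its 2afl/fl control without 4-OHT. They are used only to place values side by side. GEO's labels for the 2aiECKO pool disagree: title and genotype give the inducible line, and the source name gives 2aECKO. The first of these were followed.

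With 1 array per condition no difference below has a replicate, so no test was made and no value carries an error across animals. The members of the comparison are the genes with a single symbol on a probe set and a signal of at least 50 on either of the 2 arrays. Signal is the authors' robust multichip average (RMA) intensity on a linear scale. Of 18194 named genes on the array, 12057 met the rule, and 11796 of these had the minimum signal on both arrays. Each gene was read from its brightest such probe set, and its fold is the log2 signal in 2aiECKO minus that in the 4-OHT control. A gene is called higher here at a fold of at least 1.25 (a log2 fold of 0.32) with a signal of at least 50 in 2aiECKO, and lower at a fold of at most 0.8 with that signal in the control. By this rule 227 genes were higher, which is 1.88 percent of the genes measured, and 71 were lower, which is 0.589 percent. Of the 227, 37 had the minimum signal in 2aiECKO only, and of the 71, 24 had it in the control only. The median log2 fold of all genes was -0.004, with percentiles 1 and 99 at -0.28 and 0.40. Of all 12057 genes, 5613 (46.6 percent) were above 0 and 6149 below it, to be set beside such counts for the lists. Between the brightest probe sets of 1 gene the fold varied with a robust SD of 0.08 on the log2 scale. Of 59 higher genes read by several probe sets, 53 kept 1 sign across them, as did 14 of 19 lower genes. Sorted signals of the 2 arrays differed by at most 0.05 (log2), and the ratio of 3′ to 5′ control probe sets was 0.83 and 0.82 for Gapdh and 1.20 and 1.22 for Actb in the control and 2aiECKO. The 4-OHT control array stood apart from the other 3 in lens crystallin genes, which are described with their values on all arrays, and key list medians are also given against the other control.

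**Figure D1:**
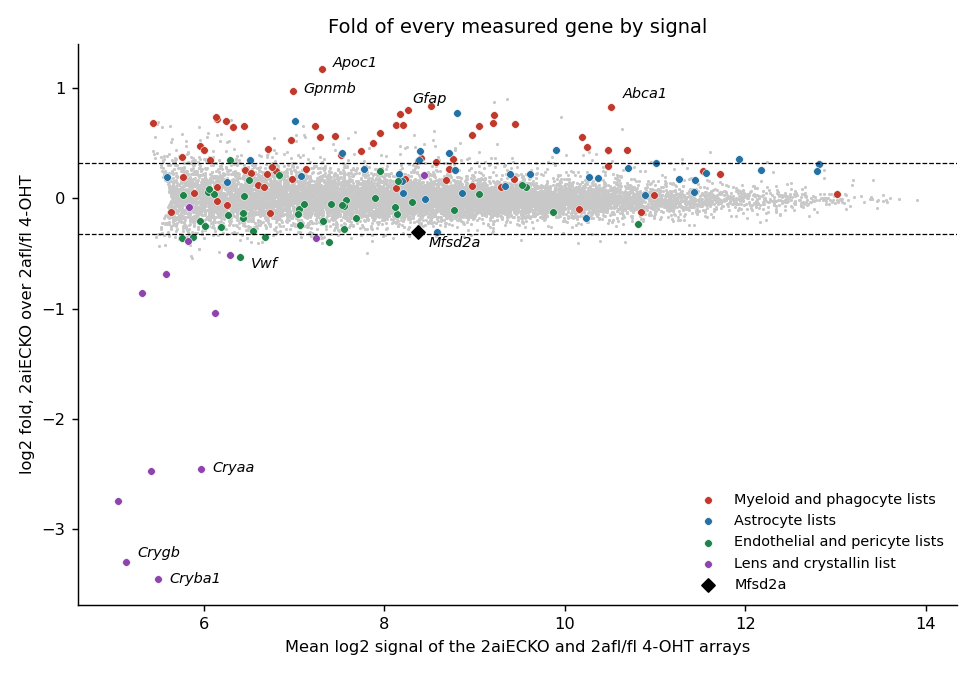
Every measured gene (n = 12057) by its mean log2 signal on the 2 arrays (x axis) and its log2 fold of 2aiECKO over the 4-OHT-treated control (y axis). Dashed lines mark folds of 1.25 and 0.8. Colours mark the myeloid, astrocyte, vascular and lens lists, and the diamond is Mfsd2a. Many of the genes far above the upper line belong to the myeloid lists, and the genes far below the lower line are crystallins.

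Mfsd2a itself had signals of 369 and 299, control first, for a log2 fold of -0.30, just short of the threshold for a lower call. It was read by 1 probe set, and whether that probe set lies in the deleted part of the gene was not determined. The same probe set gave -0.05 in 2aECKO. The most prominent feature of the 2aiECKO array lay outside endothelium: genes of microglia and other phagocytes, and a smaller set of astrocyte genes, stood above the control, while few vascular or neuronal genes passed the threshold in either direction.

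Microglia are the resident macrophages of the brain. They carry Fc receptors and complement components, clear debris through lysosomes, and in the first postnatal weeks include growth-associated cells that engulf myelin debris and dying cells and express lipid-handling genes. To show where such genes begin, the promoters of a pair of myeloid genes described below are printed here from RefSeq (GRCm38.p6), each 250 bases before to 50 after the start site. Fcgr1 encodes the high-affinity IgG receptor and lies on the minus strand at chr3:96293920-96294219, and Laptm5, a lysosomal membrane protein of blood cells, lies on the plus strand at chr4:130913066-130913365. Capitals mark GAGGAAG, the core of sites for PU.1, the master regulator of myeloid cells, here in its reverse complement.
Fcgr1: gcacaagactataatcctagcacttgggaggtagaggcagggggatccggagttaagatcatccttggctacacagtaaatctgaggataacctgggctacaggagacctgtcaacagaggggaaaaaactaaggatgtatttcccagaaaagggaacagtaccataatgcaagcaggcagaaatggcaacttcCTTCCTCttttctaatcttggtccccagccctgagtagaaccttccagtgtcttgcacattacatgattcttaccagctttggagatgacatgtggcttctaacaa
Laptm5: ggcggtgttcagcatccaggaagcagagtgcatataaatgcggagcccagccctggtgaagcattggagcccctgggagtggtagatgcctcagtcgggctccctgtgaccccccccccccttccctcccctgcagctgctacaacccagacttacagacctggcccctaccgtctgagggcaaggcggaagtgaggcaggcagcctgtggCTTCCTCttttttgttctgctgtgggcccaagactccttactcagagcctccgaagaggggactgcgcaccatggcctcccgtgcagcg
These letters, searched on both strands, were present in the first listed promoter of 9 of 24 pan-myeloid genes (37.5 percent) and of 3658 of all 27025 genes (13.5 percent). Among the genes higher in 2aiECKO, which include pan-myeloid genes, 37 of 182 with a listed promoter held them (20.3 percent). Among the lower genes 8 of 52 did (15.4 percent). In lists of other kinds the share ran from 0 of 22 lens genes to 7 of 27 genes of fatty acid synthesis and desaturation (25.9 percent), so the letters were not confined to myeloid genes. A match is a string of letters and not evidence of binding.

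Of 25 measured pan-myeloid genes, 19 were higher and 0 lower, with a median log2 fold of 0.56 against -0.004 for all genes. All 25 had the minimum signal on both arrays. Tyrobp, the adaptor of Trem2 and other activating receptors, had signals of 456 (control) and 772 (2aiECKO), with a log2 fold of 0.76. Its partner Trem2, a lipid-sensing receptor, went from 129 to 189, a log2 fold of 0.56. Mpeg1, a pore-forming protein of macrophages, had 232 and 404, a log2 fold of 0.80. Fcgr3, Fcer1g and Cd68, which encode an IgG receptor, the shared Fc receptor gamma chain and a lysosomal glycoprotein, had log2 folds of 0.66, 0.59 and 0.66. Fcgr1 had 0.74 at its brightest probe set and 0.04 at the other, and Laptm5 ranged from 0.16 to 0.67 over 4 probe sets, so those folds depend on the probe set. Spi1, which encodes PU.1, had 0.35, and Irf8, a factor that microglia need, had 0.43. The members that did not pass were Ncf1 at 0.26, Unc93b1 at 0.18, Ptprc at 0.10, Fcgr2b at 0.09, Lcp1 at -0.06 and Coro1a at -0.10. Ptprc encodes CD45, the common surface protein of blood cells, so that gene and the actin-binding proteins Lcp1 and Coro1a did not share the height of the rest. In tissue RNA, more cells of a type and more RNA per cell cannot be told apart.

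Of 9 complement genes measured, the 3 for C1q and the receptor gene C3ar1 were higher. C1qa, C1qb and C1qc, the chains of C1q, which microglia make, had signals of 463, 555 and 422 in the control. In 2aiECKO they had 747, 884 and 667, which are log2 folds of 0.69, 0.67 and 0.66. C3ar1, the receptor for the C3a fragment, had 0.71 and a second probe set at 0.76. The other members measured were C2 at -0.01, the inhibitor Serping1 at 0.18, properdin (Cfp) at 0.13, and the membrane regulators Cd55 at -0.09 and Cd59a at -0.03. None of these passed the threshold.

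Genes of lipid-laden and growth-associated phagocytes were the other high group, with 16 of 30 measured members higher, 0 lower and a median log2 fold of 0.33. Of the 30, 2 had the minimum signal in 2aiECKO only and 1 in the control only. Apoc1, an apolipoprotein of lipid-laden macrophages, had a signal of 106 in the control and 238 in 2aiECKO. Its log2 fold of 1.17 was the highest of all named genes, and Apoc1 was the only gene at 2-fold or more. Gpnmb, a glycoprotein of phagocytes under lysosomal load, followed with 90.4 and 177, a log2 fold of 0.97. Abca1, the transporter that exports cholesterol, was the brightest of the leading genes, with 1099 and 1954, a log2 fold of 0.83 and of 0.90 at its other probe set. Apoc1 and Abca1 both act in lipid transport, but the lipid-handling members Lpl and Fabp5, given below, did not pass the threshold. Both lysozyme genes were high, Lyz1 at 0.84 and Lyz2 at 0.77; the sequences of these paralogs are close, and their probe sets may share transcripts, so they are uncertain as separate values. Clec7a and Lgals3, receptors of activated phagocytes, had 0.71 and 0.53, and the chemokine genes Ccl3, Ccl6 and Ccl9 had 0.68, 0.66 and 0.38. The control signal of Ccl3 was only 34.1, below the minimum. Apoe, the main brain apolipoprotein and a product of both astrocytes and microglia, was close to the threshold at 0.32, from 6445 to 8025. Several markers of the growth-associated state stayed below the threshold: Igf1 had 0.11, Lpl 0.03, Fabp5 0.04, Pld3 -0.12 and Ccl4 -0.12.

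The homeostatic markers of microglia were less high than the pan-myeloid genes. Of 16 measured, 5 were higher and 0 lower, with a median of 0.24. Gpr34, a lysophospholipid receptor, had 63.8 and 100.2, a log2 fold of 0.65. Csf1r, the receptor on which microglia depend, had 1228 and 1663, a log2 fold of 0.44 with 3 probe sets from 0.39 to 0.44. The fractalkine receptor Cx3cr1 had 0.36, and Olfml3 and Fcrls had 0.43 and 0.36. The purinergic receptors P2ry6, P2ry12 and P2ry13 lay below the threshold at 0.28, 0.26 and 0.22, Siglech was at 0.10, and Tmem119 was at -0.14. Over the marker list for microglia, 7 of 8 markers were on the array, all with sufficient signal, and their summed signal was 2648 in the control and 3562 in 2aiECKO. Genes of macrophages at the borders of the brain, such as those of the meninges and perivascular space, numbered 8 measured, of which 3 were higher: Mrc1 at 0.45, Stab1 at 0.45 and Folr2 at 0.34. Of the 5 markers for granulocytes and lymphocytes, 3 were on the array; S100a8 and S100a9 were below 50 on both arrays, and Cd3e had 75.3 and 64.8.

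Lysosomal genes lay above the control as a group, with 5 of 22 higher and a median of 0.21. Of the 22, 19 were above 0, beside 46.6 percent of all genes. The cathepsin genes Ctsz and Ctsd had 0.47 and 0.44, and Ctsd, an aspartic protease, went from 1417 to 1921. Gusb, a glycosidase, had 0.46, Grn, which encodes progranulin, had 0.38, and Lamp2, a membrane protein of lysosomes, had 0.33. Among the whole cathepsin family, a grouping chosen after the values were seen, all 12 measured members were above 0 and 4 were higher. Ctss, a myeloid cathepsin, was at 0.56, and Ctsb, a widely expressed one, at 0.22. Of 14 interferon-response genes 13 were above 0, with a median of 0.18, but only B2m, the light chain of MHC class I, at 0.40, and Rtp4 at 0.38 passed the threshold. Of 15 cytokine and chemokine genes 1, Ccl3, passed. Its signals were 34.1 in the control and 54.8 in 2aiECKO, so it met the minimum through 2aiECKO only.

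**Figure D2:**
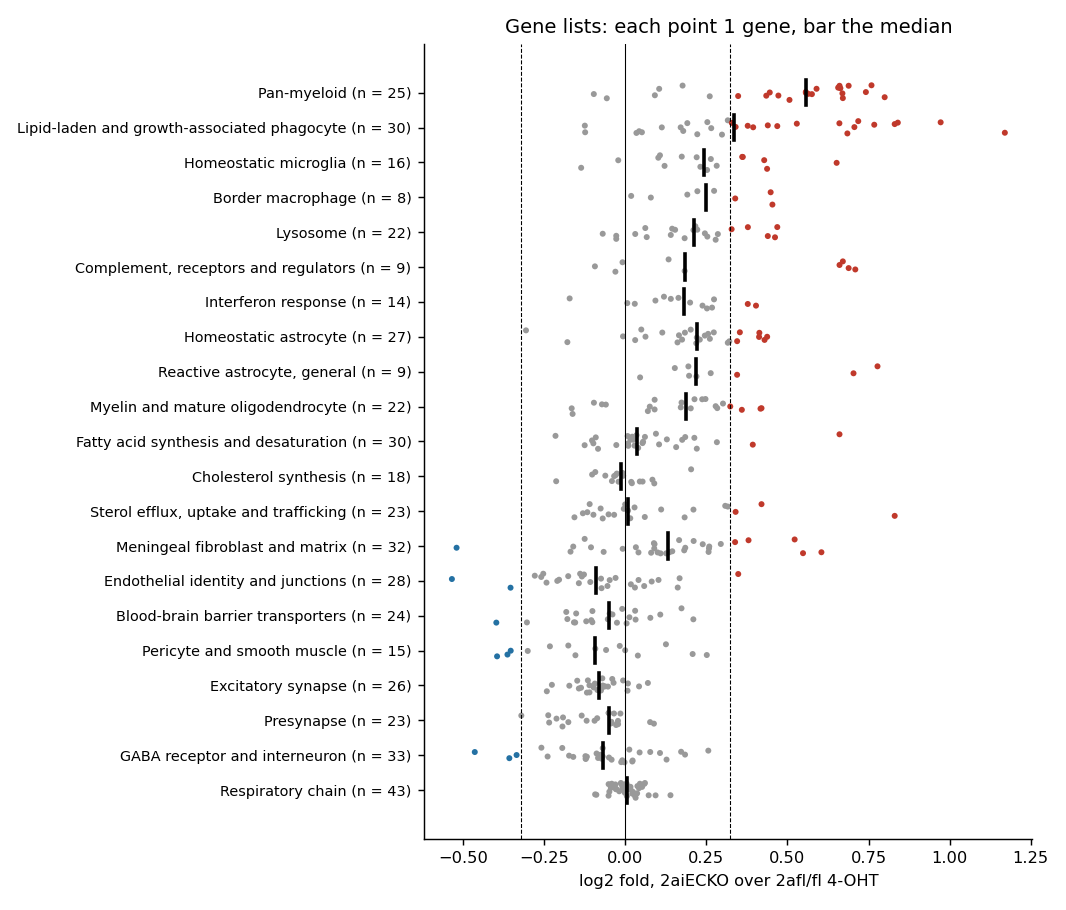
Log2 fold of 2aiECKO over the 4-OHT-treated control (x axis) for the measured genes of 21 lists (rows, with the number of genes). Each point is 1 gene, red where higher and blue where lower by the fold rule, and the black bar is the list's median. The pan-myeloid median is 0.56, those of the synapse lists are below 0, and the respiratory chain genes lie within a narrow band around 0.

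In the earlier-onset model the same genes were placed differently. The pan-myeloid median was 0.08 in 2aECKO, against 0.56 in 2aiECKO, and that of homeostatic microglia was -0.03 against 0.24. For the lipid-laden phagocyte list the values were 0.19 and 0.33. Abca1 had 0.81 in 2aECKO and 0.83 in 2aiECKO, Gpnmb 0.73 and 0.97, Lyz1 0.75 and 0.84, and Lgals3 0.52 and 0.53. Other members of the list lay further apart, Apoc1 with 0.34 in 2aECKO and 1.17 in 2aiECKO and Clec7a with 0.23 and 0.71. Cd68 had 0.05 and 0.66, and P2ry12 -0.36 and 0.26. Fcgr1 had 0.06 and 0.74 at its brightest probe set, but 0.03 and 0.04 at the other. Cd52, a small surface protein of leukocytes, had -0.29 in 2aECKO and 0.72 in 2aiECKO, the widest gap in that direction among the genes above 50 in both pairs, and Aif1, which encodes Iba1, had -0.25 and 0.45. The pairs differ in Cre line, age, 4-OHT and array scale, which cannot be told apart, and the gap between them was not tested. Of the 227 genes higher in 2aiECKO, 197 had a log2 fold above 0 in 2aECKO (86.8 percent, against 46.4 percent of all genes), and 68 also met the fold rule there (29.96 percent, against 1.91 percent of all genes).

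**Figure D3:**
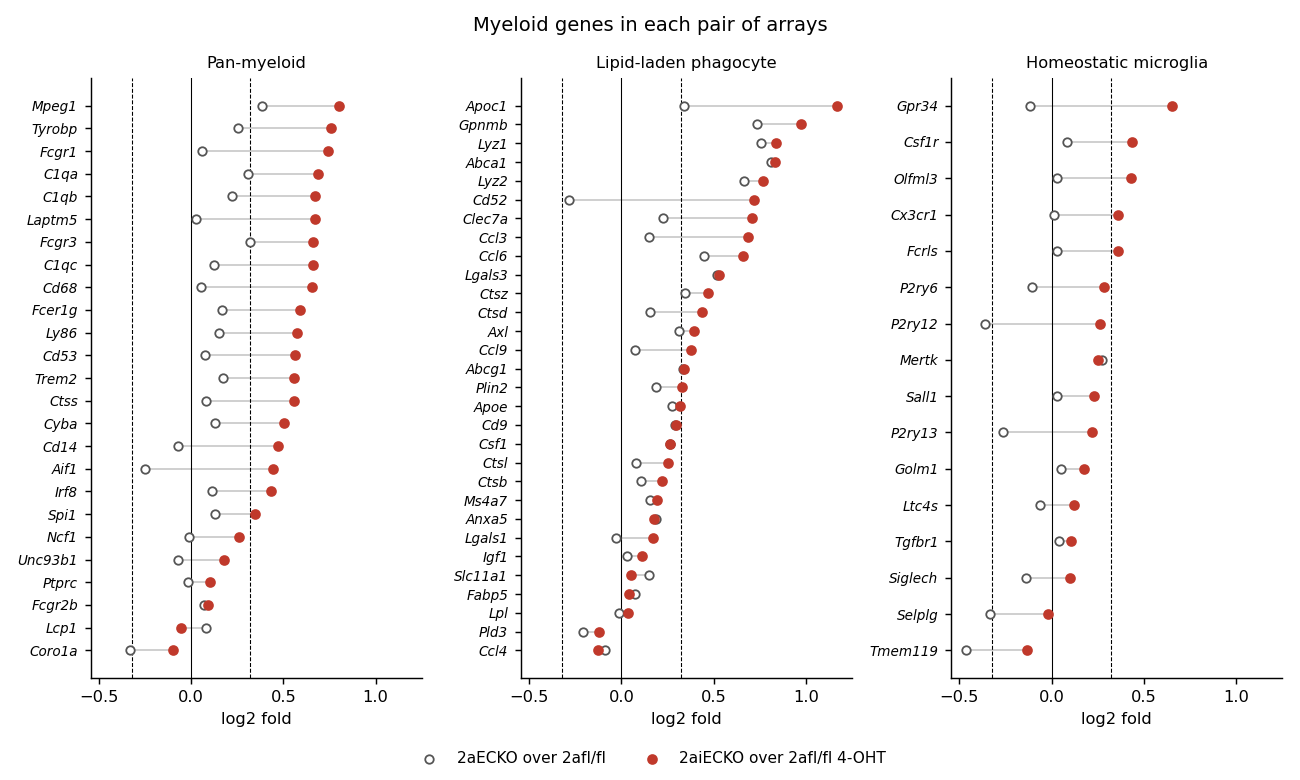
Log2 folds (x axis) of the measured members of the pan-myeloid (n = 25), lipid-laden phagocyte (n = 30) and homeostatic microglia (n = 16) lists. Filled circles are 2aiECKO over its 4-OHT-treated control, open circles 2aECKO over 2afl/fl, and dashed lines mark folds of 1.25 and 0.8. Open circles of most pan-myeloid genes lie left of the filled ones, while those of Abca1, Lyz1 and Lgals3 lie close to them.

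Astrocytes wrap the vessels with their endfeet, take up transmitter and supply lipids to neurons. Of 27 homeostatic astrocyte genes 6 were higher and 0 lower, 24 were above 0, and the median was 0.22. Id3, a target of BMP signalling, had 819 and 1109.6, a log2 fold of 0.44. Gja1 and Gjb6, the astrocyte connexins, had 0.35 and 0.41, with 6 probe sets of Gja1 from 0.13 to 0.46. The zinc transporter gene Slc39a12, the receptor gene Ntsr2 and S100b had 0.43, 0.41 and 0.34, and the water channel gene Aqp4 had 0.32, from 1847 to 2307. The glutamate transporter genes Slc1a3 and Slc1a2 had 0.27 and 0.06, and the glypican gene Gpc5 had -0.31, so the members were not of 1 size. Among genes of reactive astrocytes in general 3 of 9 were higher: Gfap, the intermediate filament, at 0.78 with 3 probe sets from 0.78 to 0.92, the protease inhibitor Serpina3n at 0.70, and ceruloplasmin (Cp) at 0.34. Vim had 0.19 and Timp1 0.20. None of 7 inflammation-type and 1 of 8 ischaemia-type reactive genes passed, the latter being Cd14 at 0.47, which myeloid cells also express. In 2aECKO over 2afl/fl the homeostatic astrocyte median was 0.15, with 4 members higher and 0 lower. The general reactive median there was 0.16, with 3 higher, and Gfap had 0.76. With 2aiECKO read against the day 9 2afl/fl array instead, after quantile normalization over the 4 arrays, the homeostatic astrocyte median was -0.001. The position of these genes in 2aiECKO thus depends on the control used. The same change of control left the pan-myeloid median at 0.79, but both readings use the same 2aiECKO array. In that reading 16.3 percent of all genes were higher and 9.45 percent lower. Gjb6, Ntsr2 and S100b were then below 0, at -0.01, -0.18 and -0.12, and Slc39a12 was at 0.29. Of the myeloid and lysosomal genes above, Cx3cr1, Olfml3 and Grn no longer met the fold rule, at 0.15, 0.20 and 0.20.

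Genes that respond to stress hormones were divided. Fam107a, a glucocorticoid-responsive gene of astrocytes, had 479 and 897, a log2 fold of 0.90 and of 0.82 at its other probe set. Against the day 9 2afl/fl array it was at 0.23 and did not meet the fold rule. The metallothionein genes Mt2 and Mt1 had 0.73 and 0.63, from 769 to 1279 and from 1274 to 1965. Pdk4, a kinase that restrains glucose oxidation, had 0.40, and Sult1a1 had 0.38; against the day 9 array they were at 0.07 and 0.10. The glucocorticoid targets Fkbp5, Tsc22d3 and Sgk1 did not pass the threshold, at -0.02, 0.04 and 0.16. The cause of the folds in this list was not tested. In all 5 of 19 members were higher and the median was 0.10. Metallothioneins bind zinc and copper, and their genes are induced by metals through short response elements as well as by glucocorticoids. The promoters of this pair are printed from RefSeq (GRCm38.p6, plus strand), Mt1 at chr8:94178839-94179138 and Mt2 at chr8:94172368-94172667. Capitals mark TGCGCNC and TGCACNC, the forms of the metal response element core searched, on both strands.
Mt1: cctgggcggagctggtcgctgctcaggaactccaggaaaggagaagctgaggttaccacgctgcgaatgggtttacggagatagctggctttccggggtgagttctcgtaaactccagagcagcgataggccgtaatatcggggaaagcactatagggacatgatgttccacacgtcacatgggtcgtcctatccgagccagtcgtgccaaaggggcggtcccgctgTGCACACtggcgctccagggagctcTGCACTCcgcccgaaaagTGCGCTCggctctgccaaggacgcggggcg
Mt2: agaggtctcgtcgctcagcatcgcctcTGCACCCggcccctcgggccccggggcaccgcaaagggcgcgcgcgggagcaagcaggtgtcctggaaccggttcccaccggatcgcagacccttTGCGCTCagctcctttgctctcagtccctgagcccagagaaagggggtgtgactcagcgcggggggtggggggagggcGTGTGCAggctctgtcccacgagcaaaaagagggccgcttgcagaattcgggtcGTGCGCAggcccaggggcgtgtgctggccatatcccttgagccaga
Mt1 held 3 such runs of letters and Mt2 held 4, with no overlap between them. Of all 27025 promoters 15.5 percent held TGCGCNC and 12.4 percent held TGCACNC, and of those of the higher genes 15.9 and 9.89 percent. Other genes of metal handling were Cp, above, and Heph, the membrane-bound ferroxidase, at 0.67 with a control signal of only 35.5. The iron importer Tfrc had -0.18 and the exporter Slc40a1 -0.16.

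The lipid synthesis lists gave few calls in number, and their shares of higher genes differed. Higher genes were 9.09 percent of Srebp processing and regulation, 6.67 percent of fatty acid synthesis and desaturation and 0 percent of cholesterol synthesis. Over all genes 1.88 percent were higher. Srebf1, which encodes Srebp-1, was the single member of 11 genes of Srebp processing and regulation that passed, with 303 and 461, a log2 fold of 0.61. In the list of fatty acid synthesis and desaturation, 2 of 30 passed upward, Thrsp at 0.66 with probe sets from 0.24 upward and Scd1 at 0.39, the latter at 0.15 against the day 9 array. The polyunsaturated desaturase genes Fads2 and Fads1 had 0.28 and 0.22. The list's median was 0.04, and 23 of 30 members were above 0 (76.7 percent, beside 46.6 percent of all genes). Cholesterol synthesis had 0 of 18 members past either threshold and a median of -0.01, with members between -0.21 for Tm7sf2 and 0.20 for Lss. In 2aECKO the corresponding median was 0.22. Sterol efflux was led by Abca1 and Abcg1, targets of the liver X receptors, with 0.34 for Abcg1, and by Apod at 0.42, which was at 0.29 against the day 9 array. The median of the 23 efflux, uptake and trafficking genes was 0.01, so the 3 higher members did not carry the list. The remaining lipid lists held 0 or 1 calls each, counts too small to set them apart from all genes. None of 42 phospholipid genes and none of 16 genes of fatty acid uptake, binding and activation passed, in fatty acid oxidation Pdk4 was the 1 gene of 28 that did, in triglyceride storage Plin2, the coat protein of lipid droplets, the 1 of 16 at 0.33, and in sphingolipid metabolism St8sia5, a sialyltransferase, the 1 of 29 at -0.33. The sterol response element core TCACNCCAC was found in 3 of 182 promoters of higher genes, 1.65 percent, and in 3 of 52 of lower genes, 5.77 percent, beside 1.22 percent of all.

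Vascular genes were the tissue in which Mfsd2a was targeted, and most of them stood close to the control. Of 28 genes of endothelial identity and junctions 1 was higher and 2 lower, 19 were at or below 0, and the median was -0.09, against 0.003 in 2aECKO. Vwf, the von Willebrand factor of larger vessels, had 102 in control tissue and 70.4 in 2aiECKO, for a log2 fold of -0.53, and 0.02 in 2aECKO. Sox7, an endothelial transcription factor, had -0.35, its relatives Sox18 and Sox17 had -0.28 and 0.08, and the angiopoietin receptor Tek had -0.24. Fli1 was higher at 0.35; this factor is made by myeloid cells as well as by endothelium. Against the day 9 2afl/fl array it was at -0.26, opposite in direction. The general endothelial genes Pecam1, Cdh5, Cldn5 and Kdr had 0.04, -0.13, -0.13 and -0.05. Thus the junction gene Cldn5 and the marker gene Pecam1 lay well within the thresholds. Of 8 endothelial markers 7 had sufficient signal, Tie1 being below 50 on both arrays, and the summed signal was 1858 in the control and 1710 in 2aiECKO.

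Barrier transporters had 1 of 24 members lower. Slc16a1, the monocarboxylate transporter for lactate and ketone bodies, had 1870.5 and 1420.5, a log2 fold of -0.40, and -0.68 in 2aECKO, so both arrays of the knockouts lay below their own control. Slc2a1, the glucose transporter, had 0.17, the organic anion transporters Slco1a4 and Slco1c1 had 0.21 and -0.18, and Abcb1a, the drug efflux pump, had 0.03. Genes of caveolae, leak and endothelial inflammation had 0 of 9 members past a threshold. Among them the adhesion gene Vcam1 had 0.21, Cavin1, a caveolar coat protein, had 0.07, and the venular chemokine-binding receptor Ackr1 had -0.26. No member passed among 18 tip cell genes, 16 genes of Wnt signalling at the barrier and 17 basement membrane genes, where the largest value was -0.31 for Lama4, the endothelial laminin chain. Pericytes, the mural cells of capillaries, gave 3 lower members of 15 and a median of -0.09, against 0.06 in 2aECKO. Abcc9 and Kcnj8, subunits of the ATP-sensitive potassium channel of pericytes, had -0.39 and -0.35, and Higd1b had -0.36. Abcc9 is uncertain, since its second probe set gave 0.10, and Kcnj8 was at -0.15 against the day 9 array. Rgs5, with 4 probe sets from -0.29 to -0.20, had -0.23 at a signal of 1949.5 in the control, while Pdgfrb had 0.25 and the contractile genes Acta2 and Tagln had -0.02 and 0.21. Rgs5 was thus below the control at its 4 probe sets and Pdgfrb was above it, while the channel genes depended on the probe set or the control. Ushbp1, Htra3 and Car4, genes outside the lists that were also lower, had -0.42, -0.41 and -0.35, and Ushbp1 was at 0.21 against the day 9 array.

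**Figure D4:**
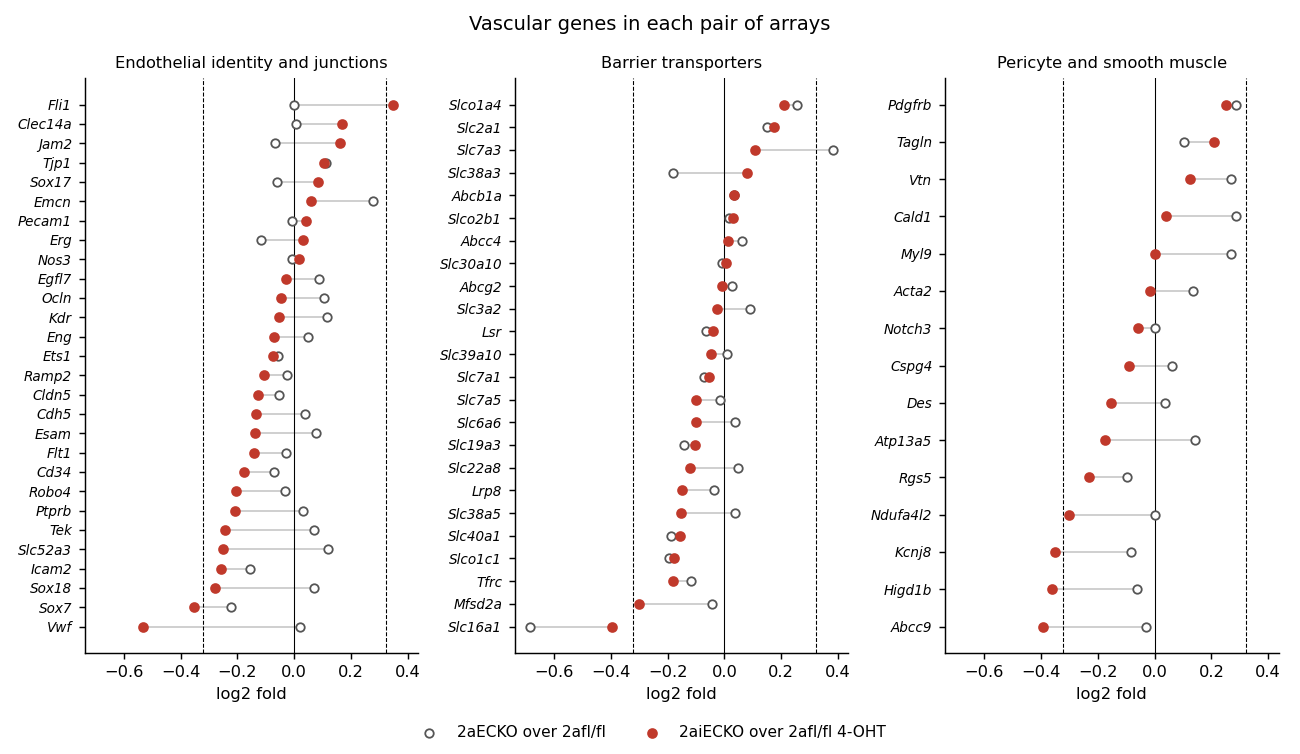
Log2 folds (x axis) of the measured genes of endothelial identity and junctions (n = 28), barrier transporters (n = 24) and pericytes and smooth muscle (n = 15). Filled circles are 2aiECKO over its 4-OHT-treated control, open circles 2aECKO over 2afl/fl, and dashed lines mark folds of 1.25 and 0.8. Vwf has the lowest filled circle of the first panel, with its open circle near 0, and Slc16a1 is low in both pairs.

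The genes furthest below the control were crystallins, the structural proteins of the eye lens. The control pool had signals of 149 for Cryba1, 111 for Crygb and 85.9 for Crygd. On the 2aiECKO array they were 13.6, 11.2 and 12.8, which are log2 folds of -3.46, -3.30 and -2.74. On the arrays of the other pair Cryba1 had 16.6 in 2afl/fl and 19.6 in 2aECKO, Crygb 13.8 and 10.04, and Crygd 11.9 and 10.7. The 4-OHT control was thus the high array, and 2aiECKO lay with the rest. Cryga had 100.3 in the control and 18.0 in 2aiECKO, beside 18.0 in 2afl/fl and 18.9 in 2aECKO. Cryaa had 147 in the control and 26.8 in 2aiECKO, beside 61.0 and 48.7. The gamma-crystallin genes are close paralogs, so their probe sets may share transcripts. Of the 13 lens genes that met the minimum signal 11 were lower, but 9 of the 13 met it only through the control, so that count follows from the selection. Over all 20 lens genes on the array, with no minimum, the median was -0.45, and Mip, Gja3 and Crygn had 0.03, -0.04 and 0.00. Cryab, which brain cells express, had 0.21. None of the 3 retinal markers on the array reached 50: Sag, Rcvrn and Pde6b were below it on both arrays. In the longer retina list, 1 of 11 genes on the array met the minimum, at 0.12. Against the day 9 2afl/fl array, after quantile normalization, the lens median was 0.32 over 7 genes, with 0 of them lower. Of the 71 lower genes 11 were crystallins, which leaves 60. The promoter of Cryaa (GRCm38.p6, plus strand, chr17:31677681-31677980) is shown with TGCTGAC, the core of sites for the MAF factors of lens, in capitals.
Cryaa: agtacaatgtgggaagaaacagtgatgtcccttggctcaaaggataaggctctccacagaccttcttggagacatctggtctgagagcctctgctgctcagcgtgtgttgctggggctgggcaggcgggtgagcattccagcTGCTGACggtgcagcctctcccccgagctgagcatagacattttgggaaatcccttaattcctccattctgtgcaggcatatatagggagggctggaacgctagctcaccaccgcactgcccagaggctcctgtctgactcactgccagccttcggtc
This run of letters was in 5 of 22 promoters of the lens list and in 4.58 percent of all promoters, searched on both strands.

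**Figure D5:**
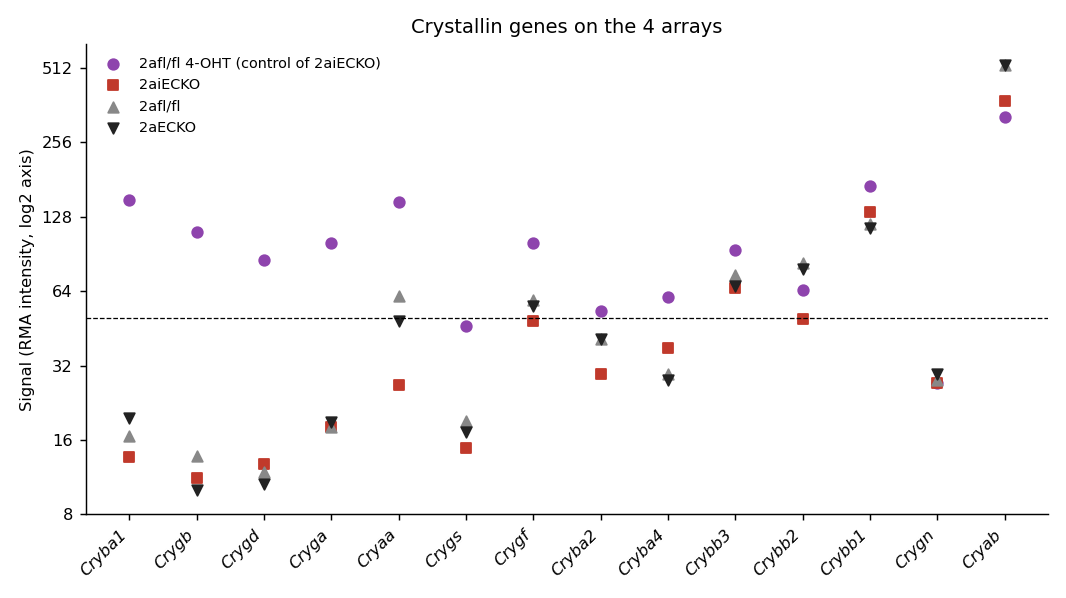
Signal (y axis, RMA intensity on a log2 axis) of each crystallin gene of the lens list (x axis, ordered by fold) on the 4 arrays. The dashed line marks the minimum signal of 50. For Cryba1, Crygb, Crygd and Cryga the 4-OHT-treated control lies at 85.9 or above while the other 3 arrays lie at 19.6 or below.

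Most genes of excitatory synapses and the presynapse lay slightly below the control, without calls. Of 26 excitatory synapse genes 22 were at or below 0 and 0 passed a threshold, with a median of -0.08, and of 23 presynaptic genes 21 were at or below 0, with a median of -0.05. Nrgn, a calmodulin-binding protein of dendrites, had -0.24, Camk2a, the synaptic kinase, had -0.17, and the complexin genes Cplx1 and Cplx2 had -0.24 and -0.23. In 2aECKO the 2 medians were -0.11 and -0.10. Of 33 genes of GABA receptors and interneurons 3 were lower (9.09 percent, beside 0.589 percent of all genes). These were Lhx6, which specifies interneurons from the medial ganglionic eminence, at -0.36, and Kcns3 and Npas1 at -0.46 and -0.33. Their values in 2aECKO were -0.38, -0.27 and -0.26, and against the day 9 array none met the fold rule, at -0.07, -0.23 and -0.22. Sst, Gad1 and Vip had -0.17, -0.01 and 0.26, so the interneuron genes were not of 1 direction. In the cortical layer list Cux2, an upper-layer factor, was the 1 lower gene of 26 at -0.35. Of 29 activity-regulated genes 20 were above 0, with a median of 0.03. The immediate-early gene Fos was the 1 higher of them, at 0.46, while Arc had 0.04, against -0.59 in 2aECKO. The neuron markers, 5 of 5 with sufficient signal, summed to 30116 in the control and 28833 in 2aiECKO.

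Genes of oligodendrocytes lay modestly above the control. Of 22 myelin and mature oligodendrocyte genes 4 were higher and 17 above 0, with a median of 0.19, against 0.03 in 2aECKO. Mbp, the myelin basic protein, went from 2706 to 3613 at its brightest probe set, a log2 fold of 0.42, but its 8 probe sets ranged from -0.08. Against the day 9 2afl/fl array it was at -0.37, a direction opposite to that within the pair. Tmem88b had 0.36, Cnp 0.28, Mag 0.25 and Mobp -0.07. In the precursor list Bcas1, a marker of cells starting to myelinate, had 0.42, and Cnksr3 had 0.45; against the day 9 array they were at 0.22 and 0.02. Among meningeal genes 5 of 32 were higher and 1 lower, with Fmod, a collagen-binding proteoglycan, at 0.60, Ogn at 0.52 and Igfbp6, the lower one, at -0.52. Against the day 9 array the median of these genes turned from 0.13 to -0.05, and Fmod, Ogn and Igfbp6 were at 0.01, -0.004 and -0.17, none past the fold rule. Otx2, a factor of choroid plexus, had 0.56, while Ttr, its main secreted product, had 0.17. Meningeal marker signals summed to 959 and 1102, and those for choroid plexus to 10576 and 11903, in the control and 2aiECKO. The part of these tissues in the other values was not tested.

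Some lists gave 0 or 1 calls, counts too small to set them apart from all genes. Over all genes 1.88 percent were higher and 0.589 percent lower. Of 43 respiratory chain genes 0 passed either threshold, with a median of 0.004, and 0 of 29 genes of hypoxia and glycolysis passed, with a median of -0.004. Of 36 genes of unfolded protein, integrated stress and heat shock responses 1 was higher, Phgdh at 0.35, the first enzyme of serine synthesis. The next enzymes, Psat1 and Psph, had 0.21 and 0.34. Cell cycle genes had 1 of 32 lower, Ercc6l at -0.42 (0.01 against the day 9 array), and 33 genes of RNA retention and splicing had 0 calls and a median of 0.06.

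Outside the lists, the transcript of the Gt(ROSA)26Sor locus had 440.0 and 808, a log2 fold of 0.88, and 1.003 in 2aECKO. Adgre1, which encodes the macrophage marker F4/80, had 0.58, and the integrin activator Fermt3 of blood cells had 0.52. Cyp4f14, Rab32 and Alg6 had 0.70, 0.66 and 0.65, each with a control signal below 50, where a small difference in signal makes a large fold. The S100 family, grouped after its values were seen, had 5 of 7 measured members higher, from S100a1 at 0.33 to S100a6 at 0.50, while S100a16 and S100a10 had 0.20 and -0.10. Among the lower genes, Nell2, a secreted protein of neurons, had 1298 and 981, a log2 fold of -0.40. Gprin3, Gpr158, Kcnn1 and Trpa1 had -0.49, -0.43, -0.41 and -0.40, and -0.29, -0.23, -0.53 and -0.49 in 2aECKO. Lpo, Thegl and Stk32b had -0.54, -0.46 and -0.39 in 2aiECKO, and 0.17, -0.11 and 0.02 in 2aECKO. Against the day 9 array Kcnn1, Trpa1, Lpo, Thegl and Stk32b did not meet the fold rule, at -0.25, 0.16, -0.04, 0.22 and 0.06. Of the 71 lower genes, 57 had a log2 fold below 0 in 2aECKO (80.3 percent, against 51.5 percent of all genes) and 13 met the fold rule there (18.3 percent, against 1.38 percent of all genes). Genes far from 0 in 2aECKO but near the control in 2aiECKO included Sorcs2 at -0.77 and -0.10, Rmst at 1.03 and 0.23, Fgfbp3 at 0.94 and 0.22, and Col1a1, the fibrillar collagen of the meninges, at 0.74 and 0.10.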

How the data were processed

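Pooled cerebrum RNA was hybridised to Affymetrix mouse arrays, 1 per group. Each deposited value is a probe set intensity, not log-transformed, from robust multichip averaging (RMA) as run by the authors. The sources differ on the software: affy in R according to the methods, Partek 6.6 according to the submitters' processing notes. Arrays have no read depth; precision is limited by there being 1 array a group.

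Intensities were converted to log2. The array has 45101 probe sets, and the 34958 with a single gene symbol were used; 932 have several and 9211 are unnamed here. Symbols were checked through the RefSeq annotation of GRCm38.p6, which changed 0 of them. Where several probe sets read a gene, the one brightest on average (log2) over the pair stood for it. Lists, 58 in all with 1398 genes of which 1303 were matched, and 11 gene families were described by counts and medians. The members and lists were chosen with earlier results of these data known. Genes not matched are not analysed here.

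The genes named are Mfsd2a; in each list the members past the fold rule and up to 4 others with the largest folds; the 30 highest and 25 lowest genes whose other probe sets had the same sign; the 10 each way that differ most from 2aECKO; and genes whose probe sets passed the rule in opposite directions, of which there was 1, an unnamed gene model left out of the text. Unnamed gene models were left out. Members named beyond this rule, and the gene families, were chosen after their values were seen. The alternatives averaged every probe set of a gene, dropped less specific probe sets, removed a loess trend (fraction 0.3), centred the median, set the minimum signal at 100 or took no minimum, used a fold of 1.5, or took 2afl/fl of the other pair as the control after quantile normalization over the 4 arrays. The selection and calls were tested on simulated data with known folds. Promoter letters were searched in the first listed promoter of each gene. Python 3.11.15, numpy 2.4.6, pandas 2.3.3, statsmodels 0.14.6 and matplotlib 3.10.9 were used.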

Additional observations from a re-analysis of the deposited data

Results flagged for a closer look

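A result is given here where the 2 pairs of arrays moved in opposite directions by at least 0.2 on the log2 scale, each pair with 1 array per condition; the differences were not tested. Cd52, a leukocyte surface protein, had 0.72 in 2aiECKO and -0.29 in 2aECKO. Aif1, which encodes the microglial marker Iba1, had 0.45 and -0.25. Il13ra1, a receptor chain for interleukin 13, had 0.52 and -0.24, with 0.19 in 2aiECKO at its other probe set. Erdr1 had -0.38 and 0.44. Cryba1, the crystallin gene, had -3.46 and 0.24, where the control of 2aiECKO was the array that stood apart.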

How the results depend on the processing

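No paired analysis was possible because each group has 1 pooled array. The count of 227 higher and 71 lower genes was 138 and 41 with a minimum signal of 100. It was 440 and 308 with none, 36 and 8 at a fold of 1.5, and 2089 and 1208 against 2afl/fl of the other pair. There 156 of the 227 were called higher again, beside 16.3 percent of all genes. Of the 71, 64 were measured there and 24 were called lower again, beside 9.45 percent of all genes. Both readings use the same 2aiECKO array. The other alternatives stayed within 1.5 times, at 187 to 237 higher and 57 to 70 lower. Removing the loess trend and centring moved no list median or named gene by more than the spread between probe sets. The pan-myeloid median was 0.47 with no minimum and 0.79 against 2afl/fl. The lens median was -0.77 without less specific probe sets, -2.45 at a minimum of 100, -0.45 with none and 0.32 against 2afl/fl. Also against 2afl/fl, the medians were 0.65 for lipid-laden phagocytes, 0.18 for fatty acid synthesis, 0.11 for cholesterol synthesis, -0.0011 for homeostatic astrocytes, 0.0436 for granulocytes and lymphocytes, -0.0533 for meninges and -0.11 for retina, the last -0.0314 with no minimum. Of the genes named by rule and past the threshold, 124 were also measured there. Those without the minimum signal there, such as Cryba1, were left out. Of the 124, 84 met the threshold there too, and 24 kept only their direction, Fam107a (0.23) and Fmod (0.0099) among them. The 16 that turned direction were Crybb1 (0.62), Crybb3 (0.39), Crygf (0.34), Ercc6l (0.0092), Fli1 (-0.26), Gjb2 (-0.17), Gjb6 (-0.0075), Lhb (0.0734), Mbp (-0.37), Ntsr2 (-0.18), Ogn (-0.0037), S100b (-0.12), Stk32b (0.0592), Thegl (0.22), Trpa1 (0.16) and Ushbp1 (0.21). Abcc9 was 0.10 without less specific probe sets. The cause was not tested. That control differs in age, 4-OHT and array scale. Signals near 50 limit the folds of dim genes, such as the 37 higher genes below 50 in the control and the 24 lower genes below 50 in 2aiECKO.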

Other observations

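Other tissues and families gave values that the comparison above does not use. Avp, the vasopressin gene of the hypothalamus, stood 0.58 (log2) above the control in both 2aiECKO and 2aECKO, while Lhb, a pituitary hormone chain, had -0.36 and -0.39. All 12 ependymal genes measured were above 0, with a median of 0.16, and in 2aECKO their median was 0.50. Meig1 and Cfap126, genes of cilia, had 0.38 and 0.32 in 2aiECKO. All 4 Id genes, inhibitors of basic helix-loop-helix factors, were above 0, with Id4 at 0.33 and Id1 at 0.31. Among 41 potassium channel genes 2 were lower and 0 higher, with a median of -0.06, and 16 striatal genes had 0 calls and a median of 0.10. The progenitor gene Prom1 had 0.42, the 1 higher gene of 29 in its list.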
